A study of Mus musculus with 36 samples.

Results

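RIKEN-named long noncoding genes were taken as every gene whose symbol ends in Rik, whose gene number (the digits after ENSMUSG) is 85000 or more, and whose mean over the 36 libraries is at least 10 reads. The rule found 82 genes of the 22979 listed, and left 524 of the 606 late-numbered Rik genes under the read floor. Just outside the floor lay 9330185C12Rik with 9.94 mean reads and 1700092M07Rik and A930029G22Rik with 9.97, and just inside it 2410004I01Rik with 10.0, 4930509E16Rik with 10.06 and C430049E01Rik with 10.58. The RIKEN names come from a full-length cDNA collection, and a late number marks a gene that was added to the Ensembl catalogue late, so the name says how a transcript was found and nothing of what it does.

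The mouse embryonic stem cells were Cast x 129S hybrids in which a TetOn promoter drives Xist on the 129S allele and Xist carries a Bgl stem loop array, shared by all groups. Each of the 3 lines is 1 clone with a FKBP12 F36V degron tag on 1 protein, METTL3 in clone 12D, YTHDC1 in Y12H and ZCCHC8 in Z12H, and was its own control. Cells were left untreated (Ctrl) or received dTAG-13 (dTAG), which degrades the tagged protein, from 2 h before doxycycline onwards. After 20 h of doxycycline at 1 µg/ml, all groups received 500 µM 4-thiouridine (4sU) for 4 h, followed by 0, 90 or 180 min of chase in 50 mM uridine, with 2 replicates of each of the 18 groups. The RNA was total RNA after removal of ribosomal reads, so transcripts without a poly(A) tail could be counted too.

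METTL3 is the catalytic subunit of the enzyme that writes N6-methyladenosine (m6A) on RNA, and YTHDC1 is the main reader of that mark in the nucleus. ZCCHC8 is the scaffold of the nuclear exosome targeting (NEXT) complex, which hands short or unprocessed nuclear RNAs, such as transcripts running backwards from active promoters and enhancer RNAs, to the RNA exosome for decay. Many long noncoding RNAs of embryonic stem cells start at the promoters of coding genes or run antisense to them, stay in the nucleus and are short-lived, and few have an assigned function.

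The name was checked against the mouse annotation GENCODE M21 (GRCm38, the assembly of the mm10 build used for the files), which places 81 of the 82 genes and has no position for 2610524H06Rik. It calls 62 members lincRNA, 3 bidirectional promoter long noncoding RNA, 3 antisense and 1 processed transcript, in all 69 noncoding genes. The others are 1 processed pseudogene (4930471M09Rik) and 11 protein-coding genes, so the label holds for most of the set and not for these. The 69 noncoding genes held 63.0% of all reads on members and the 11 coding genes 35.2%. By position, 34 of the 69 were intergenic, 18 were divergent (they start within 2000 bases of a coding gene's start and point away from it), 11 overlapped a coding gene on the other strand, 4 began within 5000 bases after a coding gene on the same strand, and 2 overlapped a coding gene on their own strand. Annotated lengths ran from 564 to 8300 bases with a median of 1682, and 11 members had 1 exon.

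Printed here are the 3' ends of the 3 given markers and of 4 noncoding genes that moved in opposite directions in different lines. The ends are shown because exosome targets and polyadenylated RNAs differ in how their 3' ends are made. Each line gives the last 60 bases of the longest annotated transcript, 5′ to 3′, with the last AATAAA, or where there is none the last ATTAAA, in capitals. These are the hexamers that direct cleavage and polyadenylation. B830012L14Rik, a noncoding gene that also moved in opposite directions and is not printed, held neither hexamer in its last 60 bases.
4932422M17Rik, chr5:123141510-123141569, plus strand: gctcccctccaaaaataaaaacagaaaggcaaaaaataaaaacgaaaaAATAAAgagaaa
1810019N24Rik, chr7:12948592-12948651, minus strand: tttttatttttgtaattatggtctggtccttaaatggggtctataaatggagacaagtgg
1700007L15Rik, chr16:33379855-33379914, minus strand: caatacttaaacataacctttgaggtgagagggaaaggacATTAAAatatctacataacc
4631405K08Rik, chr1:193507238-193507297, minus strand: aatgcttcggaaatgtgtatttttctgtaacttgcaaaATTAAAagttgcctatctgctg
4930480K23Rik, chr14:69745810-69745869, plus strand: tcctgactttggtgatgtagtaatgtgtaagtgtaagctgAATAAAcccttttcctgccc
5730419F03Rik, chr1:78595031-78595090, minus strand: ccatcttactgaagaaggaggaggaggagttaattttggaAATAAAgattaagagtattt
B230354K17Rik, chr17:45442485-45442544, plus strand: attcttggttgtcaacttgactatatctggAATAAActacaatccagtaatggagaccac

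Of the 81 members with a transcript, 51 (63.0%) held AATAAA or ATTAAA in the last 50 bases. The share was 59.6% (28 of 47) among noncoding members that rose without ZCCHC8 and 72.2% (13 of 18) among those tested that did not. Of the other long noncoding genes in the tables, 48.2% held one of the hexamers, against 71.0% of the protein-coding genes. The shares describe annotated ends, which may differ from the ends made in these cells.

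RefSeq promoters (GRCm38.p6, 250 bases before to 50 bases after the start) were found for 48 of the 82 members. The 12 divergent members among them had a median of 36.5 CpG dinucleotides per 300 bases, against 8.0 in the 23 intergenic members and 7.0 in all 32851 promoters of the table. GGGCGG on either strand was present in 11 of the 12 divergent promoters (91.7%) and in 35.7% of all promoters, CCAAT in 2 (16.7%) against 37.4%, and TATAAA in 2 (16.7%) against 13.6%. The promoter of 1700007L15Rik, whose start lies 109 bases from that of Zfp148, a zinc finger transcription factor gene on the opposite strand, held 31 CpG and none of the 3 motifs. It is printed with that of B230354K17Rik, which begins next to Cdc5l, a spliceosome gene, overlaps it on the other strand and held 27 CpG. CpG dinucleotides are in capitals.
1700007L15Rik, chr16:33380687-33380986, minus strand: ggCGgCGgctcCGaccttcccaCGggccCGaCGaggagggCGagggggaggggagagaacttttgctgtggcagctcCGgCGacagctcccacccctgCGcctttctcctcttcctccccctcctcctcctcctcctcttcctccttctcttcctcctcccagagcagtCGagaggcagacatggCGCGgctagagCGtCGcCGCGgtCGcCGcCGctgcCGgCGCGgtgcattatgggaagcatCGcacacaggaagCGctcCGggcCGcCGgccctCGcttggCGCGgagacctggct
B230354K17Rik, chr17:45433581-45433880, plus strand: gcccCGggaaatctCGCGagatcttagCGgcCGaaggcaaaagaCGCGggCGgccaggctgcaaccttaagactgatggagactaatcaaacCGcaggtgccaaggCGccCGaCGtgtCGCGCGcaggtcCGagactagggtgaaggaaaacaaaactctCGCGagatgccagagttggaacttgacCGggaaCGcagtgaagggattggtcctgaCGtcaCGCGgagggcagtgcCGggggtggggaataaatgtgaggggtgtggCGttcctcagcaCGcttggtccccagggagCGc

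The libraries held 5274684 to 18652000 reads on genes and 4012 to 20177 reads on members. Libraries of the ZCCHC8 line were mostly the shallowest. Its deepest, with 10257631 reads, lay above the shallowest of the METTL3 line, with 9547507. Every member had at least 1 read in each of the 36 libraries. Levels are given as CPM, reads relative to the library total after scaling by edgeR's trimmed mean of M values, and the count tests are edgeR's quasi-likelihood test over 12 libraries per line with chase time in the model and Benjamini-Hochberg adjustment over all genes tested. A gene is called at an adjusted p under 0.05, and a pair is a dTAG and a Ctrl library of the same replicate and chase time. The labels do not say whether replicates were separate cultures, and libraries of 1 arm differ in chase time, so p-values measure the spread between these libraries. The degron acts on protein, so the tagged genes' RNA checks nothing here. In their own lines, Zcchc8 mRNA was 34.8 ± 5.5 CPM in the controls and 36.5 ± 4.2 CPM after dTAG, Mettl3 57.8 ± 3.4 and 58.4 ± 2.8 CPM, and Ythdc1 246 ± 56 and 364 ± 34 CPM (SD, n = 6), a rise of 0.59 on the log2 scale (edgeR adjusted p = 0.0053). In the controls of the METTL3 and YTHDC1 lines Zcchc8 stood higher, at 71.1 ± 17 and 73.0 ± 20 CPM, so the ZCCHC8 clone differs from the others in this gene before dTAG. All 6 stem cell markers were present (131.7 to 1029 CPM over the libraries), and 2 of them were called higher in the ZCCHC8 line. The 10 fibroblast markers of the feeder cells, which were removed by preplating, summed to 27.3 to 64.1 CPM, of which Fbn1 alone gave 17.2 to 39.5 CPM, with Lum at a median of 0 CPM. In the ZCCHC8 line their sums were 48.3 to 63.1 CPM in the controls and 50.8 to 59.4 CPM in dTAG libraries, and 0 of the 5 that could be tested were called in any line by edgeR (1 each in the METTL3 and YTHDC1 lines at an unadjusted p under 0.05). In such bulk RNA, fewer cells with a transcript and less of it per cell cannot be told apart.

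Depletion of ZCCHC8 raised most RIKEN-named noncoding genes. Of the 77 members tested in that line, 54 were higher and 3 lower in dTAG than in Ctrl libraries, where 19.1% of all 13413 genes tested were higher and 20.4% lower. The median log2 fold change was 0.94 over members and -0.01 over all genes, and 37 members rose more than 2-fold. The 5 untested members were too low in both arms, and a gene can pass that filter through the arm in which it is high. With no filter, all 82 members could be tested, and 56 were higher and 4 lower, against 14.1% and 14.9% of 21237 genes. The read floor that defines the set still applied. Its mean includes the 6 dTAG libraries of this line, so a gene can be a member through its rise there. Without those 6 libraries, 4930471M09Rik, 4632411P08Rik, 2310034G01Rik and 4933439N14Rik, all among the 12 largest rises below, would fall under the floor of 10 mean reads. So would 1110006O24Rik and 9130604C24Rik. Their rises are therefore partly built into the choice of members. How many members were such cases in all was not counted. Among members tested, 41 had all 6 dTAG libraries above all 6 Ctrl libraries and 0 had all below, against 5.67% and 3.08% of all genes. For the next 3 fits the share of all genes called was not counted, so they show only how the calls of members moved. With the 3 chase libraries of each replicate and arm summed, so that 2 samples faced 2, edgeR called 48 higher and 2 lower of 82. Without replicate 1 the counts were 51 higher and 4 lower, and without replicate 2 they were 47 and 2.

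The 3 markers given for the set were at a few CPM in Ctrl cells and showed some of the largest rises. They are extremes and not typical members, whose log2 fold change had a median of 0.94 and a 75th percentile of 1.98. 4932422M17Rik, a single-exon lincRNA of 2639 bases on chr5, had a lowest, median and highest level of 1.54, 2.98 and 4.95 CPM in the controls and of 32.6, 38.2 and 52.8 CPM in dTAG libraries. Its reads summed to 139 over the 6 Ctrl libraries and to 1753 over the 6 dTAG libraries, which is 3.68 ± 0.13 (SE) in log2 units with an edgeR adjusted p of 6.4e-16. The arms did not overlap, and relative to its length the gene went from 1.15 to 14.8 CPM per kb.
1810019N24Rik, an intergenic lincRNA of 1474 bases on chr7, ran from 1.15 to 2.06 CPM (median 1.44) in the controls and from 15.2 to 21.7 CPM (median 18.1) in dTAG libraries. The log2 change was 3.58 ± 0.13 (SE) with an edgeR adjusted p of 6.4e-16, again with no overlap.
1700007L15Rik, the divergent partner of Zfp148, ran from 1.65 to 2.30 CPM (median 1.96) in the controls and from 14.02 to 22.4 CPM (median 18.3) in dTAG libraries, and reached 24.7 CPM per kb, the highest of the 3. Its log2 change was 3.19 (SE 0.13, edgeR adjusted p = 4.1e-15), while Zfp148 itself changed by -0.14. In the METTL3 line the same 3 genes changed by 0.12, 0.17 and -0.02 on the log2 scale, and in the YTHDC1 line by -0.15, -0.22 and -0.22, with edgeR adjusted p from 0.705 to 0.975, and their Ctrl and dTAG libraries overlapped.

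**Figure D1:**
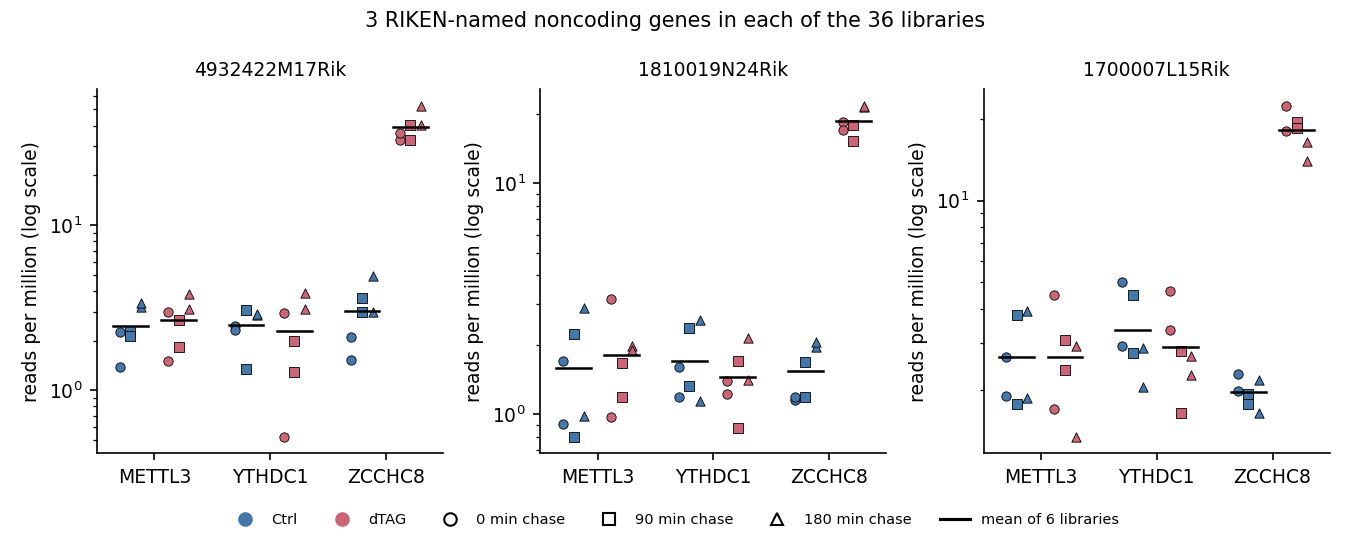
CPM (log scale) of 4932422M17Rik, 1810019N24Rik and 1700007L15Rik in each library, by line, with Ctrl in blue, dTAG in red, symbols for chase time and bars for the mean of 6 libraries. In the ZCCHC8 line all 6 dTAG libraries of each gene lie above all 6 Ctrl libraries (32.6 to 52.8 CPM against 1.54 to 4.95 CPM for 4932422M17Rik), and in the other lines the arms overlap.

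Of the 12 largest rises that went the same way in all 6 pairs, 9 were in genes other than these. The pseudogene 4930471M09Rik had the largest, from 0.446 ± 0.18 CPM in the controls to 5.996 ± 1.1 CPM after dTAG (SD, n = 6), or 3.73 on the log2 scale. The lincRNA 1700096K18Rik rose from 1.32 ± 0.69 to 15.9 ± 1.4 CPM (log2 fold change 3.63). 4632411P08Rik, which starts 309 bases from Lmbr1, the gene whose intron holds the limb enhancer of Shh, rose from 0.390 ± 0.13 to 4.42 ± 0.75 CPM (3.49). 4632411P08Rik and 4930471M09Rik had the lowest mean CPM of the 82 members in Ctrl cells of this line, with 17 reads over the 6 Ctrl libraries for 4632411P08Rik and 196 over the 6 dTAG libraries.
4930532G15Rik, divergent from Eprs, a tRNA synthetase gene, rose from 0.920 ± 0.55 to 8.83 ± 0.78 CPM (log2 fold change 3.19). 2700046G09Rik, which overlaps the sphingomyelin synthase gene Sgms1 on the other strand, rose from 1.79 ± 0.65 to 12.3 ± 2.3 CPM (2.74), and the lincRNA 4933439N14Rik from 0.743 ± 0.24 to 4.68 ± 0.82 CPM (2.68). In none of the 9 genes did the 2 arms overlap. For those that passed the read floor only through these dTAG libraries, that adds no support.
The remaining 3 are annotated as protein-coding and each lies antisense to another coding gene. 4930507D05Rik, opposite the mitochondrial RNA helicase gene Supv3l1, rose from 0.951 ± 0.45 to 8.65 ± 1.5 CPM (log2 fold change 3.17), 2310034G01Rik, opposite Mfsd13a, by 2.96, and A730071L15Rik, opposite Nudcd3, by 2.90.

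All 3 members that fell in the ZCCHC8 line are annotated protein-coding. 9130401M01Rik, which overlaps another annotated coding gene on its own strand so that reads of the 2 cannot be fully told apart, ran from 77.7 to 104 CPM (median 97.3) in the controls and from 66.2 to 84.3 CPM (median 75.3) in dTAG libraries. It was lower in all 6 pairs although the arms overlapped (log2 fold change -0.33, SE 0.05, edgeR adjusted p = 1.4e-05). 2610021A01Rik fell by 0.22 in log2 units (edgeR adjusted p = 0.0032), from 129 ± 14 to 111 ± 16 CPM. 2210013O21Rik changed by -0.28 (edgeR adjusted p = 0.043), a call that was lost without replicate 2 (adjusted p = 0.73). Among the 10 coding members tested, 5 were higher and 3 lower, and among the 65 noncoding members 47 were higher and 0 lower, with 49 of them at an unadjusted p under 0.05. The median log2 fold change was 0.99 for the noncoding and 0.54 for the coding members.

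**Figure D2:**
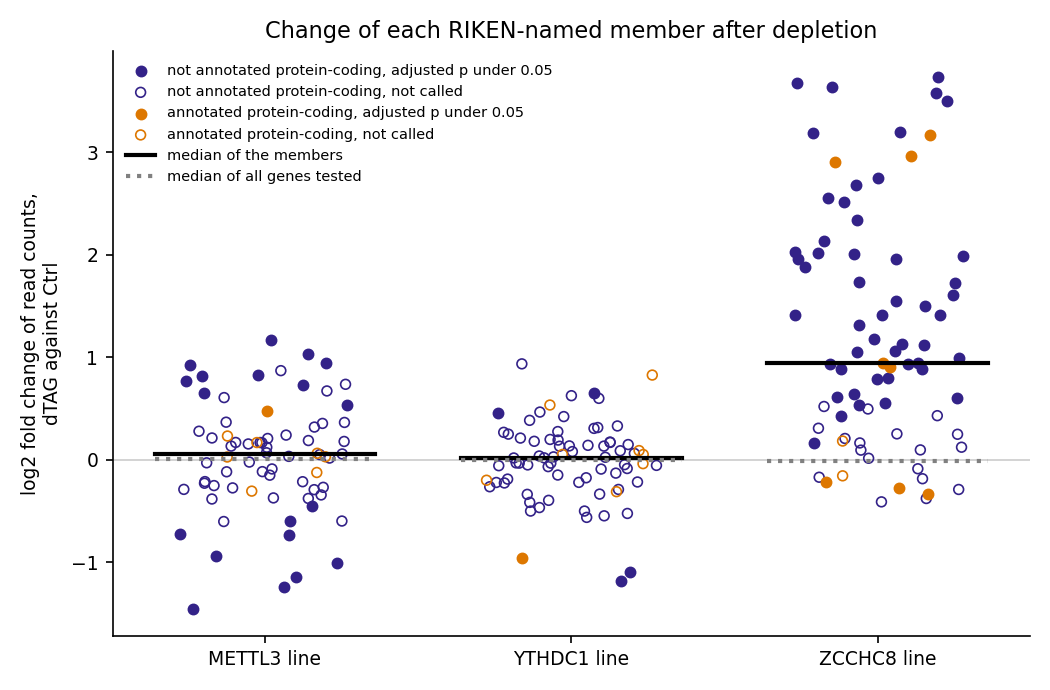
Log2 fold change of read counts, dTAG against Ctrl, for each member tested (points) in the METTL3, YTHDC1 and ZCCHC8 lines, filled where the edgeR adjusted p is under 0.05, with protein-coding annotations in orange. The median of the members (black bar) is 0.94 in the ZCCHC8 line and 0.05 and 0.02 in the METTL3 and YTHDC1 lines, beside a median of all genes (dotted) near 0 in each.

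Within the set, the rise differed by position, given here as counts and medians without a test. Of the 18 divergent members tested, 15 were higher (median log2 fold change 1.58), as were 11 of the 14 that overlap a coding gene on the other strand (1.53), 25 of the 37 intergenic members (0.79, with 2 lower) and 1 of the 4 downstream members. These classes also hold members annotated protein-coding. Those opposite a coding gene include 4930507D05Rik, 2310034G01Rik, A730071L15Rik and C130032M10Rik, and the 2 lower intergenic members are 2610021A01Rik and 2210013O21Rik. Position and coding annotation were not separated here. Single-exon noncoding members were higher in 6 of 7 cases (median 1.55) and those with 2 or more exons in 41 of 58 (0.93). The coding neighbours changed less: the divergent members' neighbours had a median log2 fold change of -0.08, with 3 of 18 higher and 4 lower, and those opposite the antisense members -0.10, with 2 of 13 higher and 5 lower. In 4 of the 15 divergent rises the neighbour was lower and in 2 it was higher. One of those is 4833445I07Rik, which rose by 2.51 while Ndufaf3, an assembly factor of respiratory complex I 99 bases away, rose by 0.74. The library kit kept strand, but how the counting used it is not stated, so for pairs that overlap, reads of the other strand were not excluded here.

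Other groups of genes in the same libraries give the range in which these medians lie. Late-numbered long noncoding genes with other names and a mean of at least 10 reads were higher in 92 and lower in 6 of 159 cases, with a median of 0.57. RIKEN-named genes with a number under 85000, of which 227 of the 250 tested are protein-coding, were higher in 85 and lower in 30 cases, with a median of 0.11. Protein-coding genes were higher in 2358 and lower in 2724 of 13068 cases (median -0.01). Of 11 long noncoding genes listed by name, such as Neat1 and Malat1, 8 were higher and 0 lower by edgeR (median 0.42, with both entries of Dancr averaged), and of 16 genes of NEXT, the exosome and its cofactors 3 were higher and 4 lower (median 0.03).

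**Figure D3:**
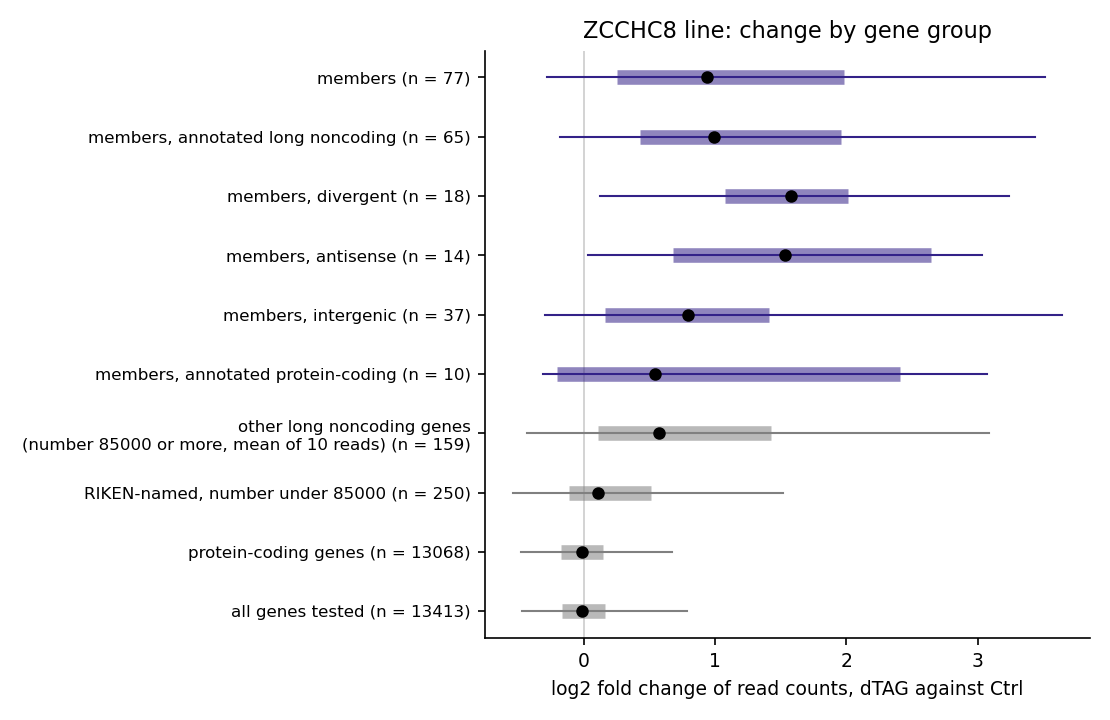
Log2 fold change of read counts, dTAG against Ctrl, in the ZCCHC8 line by gene group, with the median (point), the middle 50% (thick bar) and the 5th to 95th percentile (thin line) over the genes tested. Divergent (median 1.58) and antisense members (1.53) lie furthest to the right, and protein-coding genes lie around 0.

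Depletion of METTL3 moved fewer members and in both directions. Of 72 tested, 11 were higher and 9 lower, against 11.2% and 8.66% of all 13819 genes, with a median log2 fold change of 0.05. All 6 dTAG libraries lay above all Ctrl libraries in 3 members and below in 2, against 5.24% and 2.74% of all genes. Replicates of the same number deviated together in this line, and with replicate as a block 17 members were higher and 14 lower, where 48.8% of all genes were called in either direction. With the chase libraries summed to 2 against 2, edgeR called 0 of 82, with 9 at an unadjusted p under 0.05. The share of all genes called in that fit was not counted, so it shows nothing particular to the members.
The largest rise was in 1700086P04Rik, divergent from the ubiquitin ligase gene Rnf19b, which ran from 0.585 to 0.906 CPM (median 0.780) in the controls and from 1.11 to 2.67 CPM (median 1.61) in dTAG libraries without overlap (log2 fold change 1.17, SE 0.23, edgeR adjusted p = 0.0045, and 0.053 without replicate 1). 2610020C07Rik, which starts 35 bases from the ribosome biogenesis gene Rsl1d1, rose by 1.03 and its arms did not overlap. The other 4 named rises were lincRNAs, 9430037G07Rik (0.94, edgeR adjusted p = 0.048, and 0.16 without replicate 1), 4930461G14Rik (0.92), 4930444M15Rik (0.83) and 2310040G24Rik (0.82).
The largest fall was in 9330175E14Rik, antisense to the immune regulator gene Nlrc5, from 1.32 ± 0.30 to 0.465 ± 0.17 CPM without overlap (log2 fold change -1.46, SE 0.27, edgeR adjusted p = 0.0039). Nlrc5 itself fell in this line, from 12.4 ± 4.9 to 3.42 ± 1.1 CPM (log2 fold change -1.83, edgeR adjusted p = 7.4e-05). Whether reads of Nlrc5 were counted for 9330175E14Rik was not tested. 3830432H09Rik changed by -1.24 and D030068K23Rik by -0.94. Among the 5 members with most reads, the lincRNA 2900097C17Rik fell from 67.0 ± 20 to 49.1 ± 16 CPM, lower in all 6 pairs with overlapping arms (log2 fold change -0.45, edgeR adjusted p = 0.018). 1700020I14Rik, the member with most reads, was at 188 ± 35 CPM in the controls and 156 ± 47 CPM in dTAG libraries, with an adjusted p of 0.12 in edgeR that became 0.0056 with the replicate block.

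Depletion of YTHDC1 moved 5 of 74 members, 2 higher and 3 lower, against 2.44% and 2.92% of 13700 genes. Arms did not overlap in 1 higher and 2 lower members, against 1.04% and 1.23% of genes. With the replicate block, 8 were higher and 7 lower, where 28.2% of genes were called in either direction. The 2 against 2 fit called 0 of 82 in edgeR, with 5 at an unadjusted p under 0.05, and here too the share of all genes was not counted. The median over members was 0.02.
2610524H06Rik was the clearest rise, from 9.40 to 14.6 CPM (median 12.96) in Ctrl to 16.0 to 26.3 CPM (median 19.1) in dTAG libraries without overlap (log2 fold change 0.65, SE 0.09, edgeR adjusted p = 0.0031). It also rose by 0.73 in the METTL3 line and by 1.13 in the ZCCHC8 line, and 4930461G14Rik is the only other member called higher in all 3 lines, with 0.92, 0.45 and 0.62 in the order METTL3, YTHDC1 and ZCCHC8. The YTHDC1 call of 4930461G14Rik (edgeR adjusted p = 0.040) was 0.060 without replicate 1 and 0.090 without replicate 2. D430019H16Rik, annotated protein-coding, fell from 4.41 ± 1.3 to 2.26 ± 0.31 CPM in the YTHDC1 line without overlap (log2 fold change -0.96) and rose by 0.91 in the ZCCHC8 line.

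Members that fell in one line and rose in another were 6 of the 82, and in each the rise was in the ZCCHC8 line. Most members tested were higher in that line, whatever they did elsewhere. The share of all genes with such opposite calls was not counted. B230354K17Rik, one of the 5 members with most reads and antisense to Cdc5l, showed this at the greatest depth. In the METTL3 line it ran from 55.6 to 91.0 CPM (median 71.3) in the controls and from 26.3 to 58.9 CPM (median 41.8) in dTAG libraries, lower in all 6 pairs, while the ranges overlapped (log2 fold change -0.72, SE 0.17, edgeR adjusted p = 0.013).
In the YTHDC1 line it ran from 51.3 to 83.6 CPM (median 65.8) in the controls and from 15.3 to 43.3 CPM (median 30.6) in dTAG libraries, without overlap (log2 fold change -1.18, SE 0.13, edgeR adjusted p = 0.0011, and 0.051 without replicate 1). In the ZCCHC8 line it ran from 52.0 to 74.1 CPM (median 58.0) in the controls and from 78.8 to 109 CPM (median 90.3) in dTAG libraries, again without overlap and in the other direction (log2 fold change 0.60, SE 0.05, edgeR adjusted p = 9.9e-10). Cdc5l changed by 0.10, -0.15 and 0.00 in the 3 lines.
5730419F03Rik, an intergenic lincRNA, changed by -1.14, -1.09 and 0.93 (METTL3, YTHDC1, ZCCHC8), at means of 0.744 to 2.403 CPM. Its YTHDC1 call had an edgeR adjusted p of 0.016, which was 0.16 without replicate 2, and its ZCCHC8 call had 0.0051, which was 0.17 without replicate 1. The lincRNA 4631405K08Rik went from 3.33 ± 1.3 to 1.61 ± 0.62 CPM with METTL3 depletion (log2 change -1.01), from 3.02 ± 0.95 to 2.96 ± 1.1 CPM with YTHDC1 depletion (-0.03) and from 2.35 ± 1.1 to 13.5 ± 3.7 CPM with ZCCHC8 depletion (2.55).
4930480K23Rik, divergent from Chmp7, an ESCRT-III family gene, changed by -0.74 in the METTL3 line (edgeR adjusted p = 0.041, and 0.094 without replicate 2) and by 1.96 in the ZCCHC8 line. B830012L14Rik, named here because it completes the 6, changed by -0.60 in the METTL3 line (edgeR adjusted p = 0.045, and 0.60 without replicate 2) and by 0.55 in the ZCCHC8 line.

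**Figure D4:**
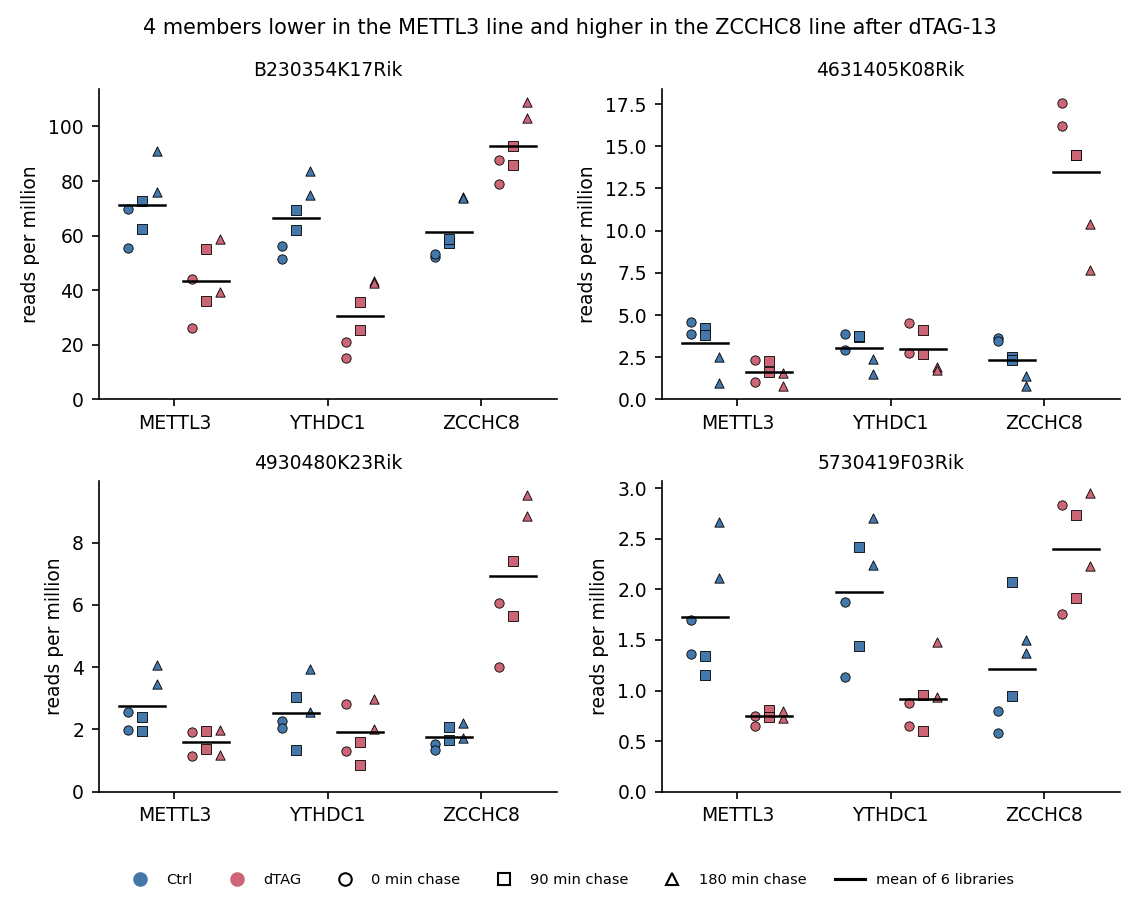
CPM of B230354K17Rik, 4631405K08Rik, 4930480K23Rik and 5730419F03Rik in each library, by line, with Ctrl in blue, dTAG in red, symbols for chase time and bars for the mean of 6 libraries. In the METTL3 line the mean is lower in dTAG than in Ctrl libraries for all 4, and in the ZCCHC8 line it is higher for all 4 (92.9 against 61.5 CPM for B230354K17Rik).

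The difference between lines was itself tested in 1 edgeR fit of all 36 libraries, in which all 82 members were kept. The response to dTAG was higher in the ZCCHC8 than in the METTL3 line for 45 members and lower for 2, against 11.2% and 12.8% of 14679 genes, with a median difference of 0.86 on the log2 scale. Against the YTHDC1 line it was higher for 38 and lower for 2, against 7.12% and 7.19% of genes, with a median of 0.77. Between the METTL3 and YTHDC1 lines it was higher for 6 and lower for 5 in the METTL3 line, against 10.6% and 10.5% of genes, and 10 and 12 with the replicate block, where 43.9% of genes were called in either direction. 2310040G24Rik was lower in the ZCCHC8 line than in both others: it was at 2.49 ± 0.83 CPM in the controls and 1.82 ± 0.42 CPM in dTAG libraries there, and had risen in the METTL3 line.

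The summed level of the noncoding members was higher at the end of the chase in every line and arm, mostly through 5 abundant members. Their summed CPM in Ctrl cells went from 496 ± 35 at 0 min to 755 ± 20 at 180 min in the METTL3 line, from 470 ± 37 to 753 ± 51 in the YTHDC1 line and from 431 ± 24 to 674 ± 37 in the ZCCHC8 line (SD, n = 2). Over the 4 pairs of arm and replicate the ratio of 180 to 0 min ran from 1.47 to 1.57, 1.44 to 1.78 and 1.34 to 1.57 in that order, and was above 1 in all 12. The 5 noncoding members with most reads (1700020I14Rik, 2900097C17Rik, B230354K17Rik, 6720427I07Rik and 5430416N02Rik) made up 63.1% to 89.0% of the gain. Without them, a comparison chosen after the data were seen, the ratio ran from 1.14 to 1.29, 1.18 to 1.30 and 1.201 to 1.33. Of the 69 noncoding members in Ctrl cells, 37, 31 and 33 were higher at 180 min in both replicates of the METTL3, YTHDC1 and ZCCHC8 lines, and 13, 19 and 11 were lower in both. The same count was not made over all genes. The coding members' ratio in the ZCCHC8 line ran from 1.02 to 1.04. In the ZCCHC8 line the noncoding sum was 1.46 to 1.71 times as high in dTAG as in Ctrl libraries over the 6 pairs, in the METTL3 line 0.810 to 1.00 times and in the YTHDC1 line 0.855 to 1.05 times. Uridine was added after 0 min, so that step changes medium as well as time. Between 90 and 180 min, both in uridine, the noncoding sum still rose 1.11 to 1.21 times over the 12 pairs, and 1.02 to 1.14 times without the 5 abundant members.
By gene, 29 members were higher and 7 lower at 180 than at 0 min in the ZCCHC8 line, against 31.7% and 30% of all genes, 17 and 7 in the YTHDC1 line, against 22.8% and 19.9%, and 10 and 1 in the METTL3 line, against 10.6% and 6.14%. With the replicate block the METTL3 counts were 20 and 5, where 48.6% of genes were called in either direction. The median log2 changes were 0.31, 0.21 and 0.11. For the next 2 fits the share of all genes called was not counted, so they show only how the calls of members moved. Without replicate 2, 16 were higher and 4 lower in the ZCCHC8 line, and without replicate 1, 22 and 5 in the METTL3 line. 1700020I14Rik rose over the chase by 0.73, 0.83 and 0.72 on the log2 scale in the ZCCHC8, YTHDC1 and METTL3 lines, and 2900097C17Rik by 0.75, 0.84 and 0.93. 4631405K08Rik fell by 1.05 in the ZCCHC8 line and by 0.90 in the YTHDC1 line, and 4930444M15Rik by 0.77 in both. In the ZCCHC8 line 4631405K08Rik thus held the opposite courses of arm and time, up with depletion and down with chase.

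The T-to-C rate fell further over the chase in the pooled noncoding members than in protein-coding genes. It was read as conversions per covered T, summed over genes, without subtraction of other mismatches. Such a rate weights abundant genes and falls both when labelled RNA is lost and when unlabelled RNA is added, which were not separated here, and the noncoding sum itself rose over the chase. In Ctrl cells of the ZCCHC8 line it was 7.74% ± 0.47 at 0 min, 4.29% ± 0.39 at 90 min and 2.48% ± 0.62 at 180 min in the 69 noncoding members, and 3.86% ± 0.04, 3.53% ± 0.12 and 2.81% ± 0.43 in protein-coding genes (SD, n = 2). At 180 min 31.9% ± 6.1 of the initial rate was left in the noncoding members, against 72.8% ± 10 in the coding genes. In the METTL3 and YTHDC1 lines 31.0% ± 5.8 and 27.7% ± 4.3 was left in the noncoding members. All 6 Ctrl replicates thus kept a smaller share in the noncoding members than in the coding genes of the same library. The 5 noncoding members with most reads held 44.2% to 67.8% of the noncoding reads at 0 min. Without them the mean share left over both arms was 30.5%, 27.9% and 33.7% in the METTL3, YTHDC1 and ZCCHC8 lines, against 28.9%, 26.9% and 35.0% with them. By gene, the rate was lower at 180 than at 0 min in both Ctrl replicates for 67, 65 and 63 of the 69 noncoding members. The same count was not made for coding genes, whose summed rate also fell, so it does not compare the 2 groups.
In dTAG cells of the ZCCHC8 line the rate at 0 min was 6.22% ± 0.43 in the noncoding members, below both Ctrl replicates (7.404% and 8.07%), and 3.44% ± 0.10 in coding genes, also below both Ctrl replicates (3.83% and 3.89%). The share left at 180 min was 38.1% ± 4.7, higher than Ctrl in both replicates while the values of the 2 arms overlapped. In coding genes of the same libraries it was 77.4% ± 5.4. With 2 replicates an arm no exact permutation test of these sums can reach a p of 0.05, and none was run.

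**Figure D5:**
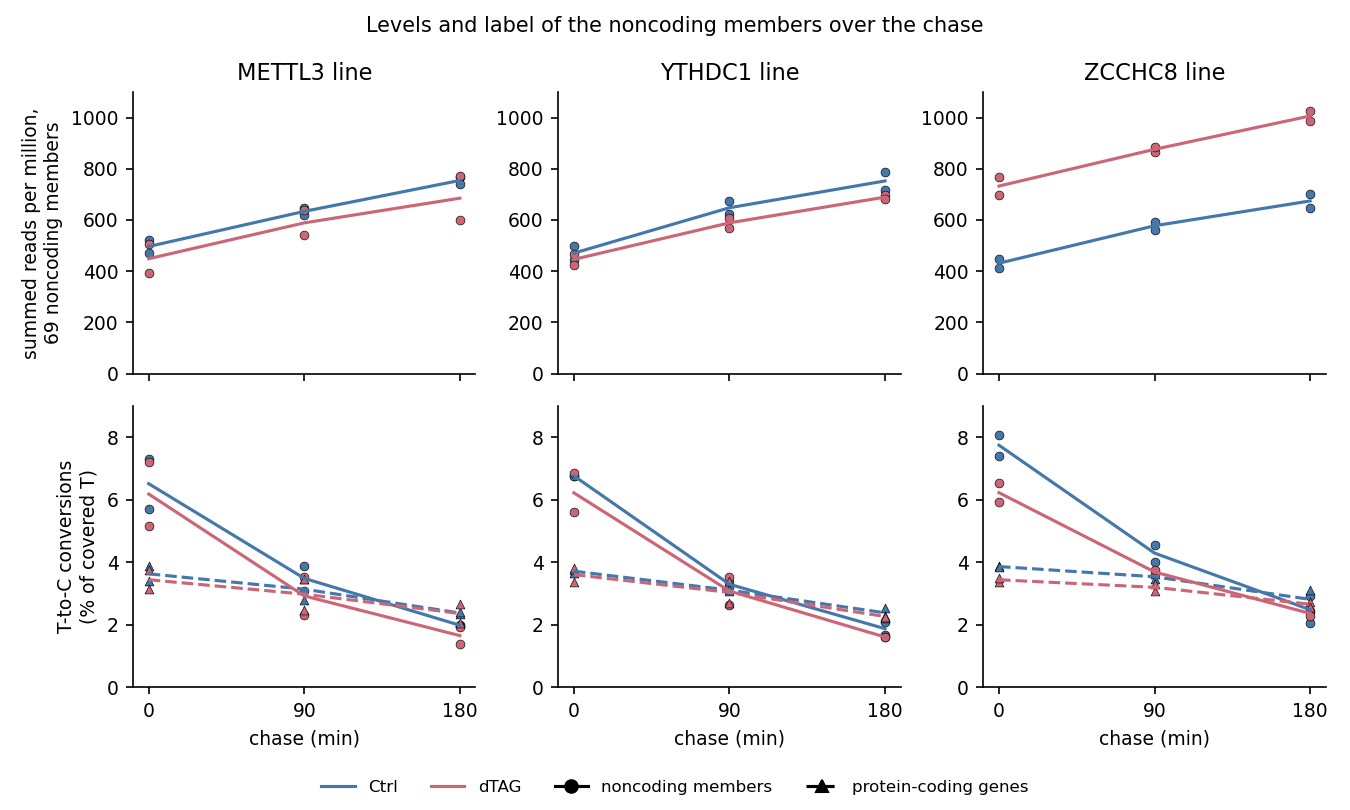
Top, summed CPM of the 69 noncoding members against chase time (min) in each line. Bottom, T-to-C conversions as a percentage of covered T in the noncoding members (circles, solid) and in protein-coding genes (triangles, dashed); points are libraries, lines join means of 2 replicates, Ctrl in blue and dTAG in red. The member sum rises with chase in each line, stands higher in dTAG only in the ZCCHC8 line, and the members' conversion rate falls from 7.74% to 2.48% in Ctrl cells of that line.

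Single genes could rarely be followed this way. Of the 3 markers, 4932422M17Rik had 8 and 16 reads in the Ctrl libraries of the ZCCHC8 line at 0 min. Its conversion rates there were 11.8% (95% Wilson interval 7.75 to 17.5%) and 6.80% (4.72 to 9.71%), against 5.23% (4.70 to 5.81%) and 6.06% (5.46 to 6.71%) in dTAG libraries. At 180 min the rates were 0.955% (0.439 to 2.07%) and 1.79% (1.09 to 2.93%) in Ctrl and 1.63% (1.39 to 1.91%) and 1.72% (1.47 to 2.01%) in dTAG libraries, lower than at 0 min in each replicate of both arms.
1810019N24Rik fell in the same way in dTAG libraries, from 5.94% and 7.26% to 1.35% and 1.42%. 1700007L15Rik did not: its rates were 3.45% and 2.02% at 0 min and 2.49% and 2.12% at 180 min in dTAG libraries, so that the 2 times overlapped. In Ctrl libraries 1700007L15Rik had 12 to 19 reads each and rates of 1.50% to 3.85%, with overlapping Wilson intervals. These intervals cover counting error only, and conversions of 1 read are not independent.

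The new-to-total ratio, the share of a gene's RNA made during the pulse as GRAND-SLAM estimates it (its maximum a posteriori or MAP value), was tested with limma on the log2 scale for genes that reached 30 reads and a ratio of 0.02 in all 12 libraries of a line. This kept 19, 20 and 17 members in the METTL3, YTHDC1 and ZCCHC8 lines, and none of the 3 markers. In Ctrl cells at 0 min the ratio was high in several noncoding members: 0.983 and 0.955 in 5430416N02Rik, 0.994 and 0.969 in 6720427I07Rik and 0.834 and 0.840 in 1700020I14Rik in the ZCCHC8 line. Among coding members it was low in 9130401M01Rik (0.318 and 0.298) and 2210013O21Rik (0.189 and 0.154) but 0.929 and 0.928 in 2610021A01Rik. These 6 are examples from both ends, chosen after their values were seen.
After METTL3 depletion 6 of 19 members had a lower ratio and 0 a higher one, where 20.4% of 10710 genes were lower, with medians of -0.26 over members and -0.15 over all genes. The largest decrease was in 2610524H06Rik, whose 0 min ratio was 0.625 and 0.591 in Ctrl and 0.445 and 0.236 in dTAG libraries (log2 change over all times -0.58, SE 0.16, limma adjusted p = 0.015). 0610012G03Rik fell by 0.51 while its level rose by 0.48, 27.3 ± 2.4 CPM in the controls and 38.0 ± 4.9 CPM in dTAG libraries without overlap. D430019H16Rik fell by 0.45, 1700020I14Rik by 0.31, 9130401M01Rik by 0.27 and 4933404O12Rik by 0.26. For fits that left out 1 replicate, the share of all genes was not counted. Without either replicate, 0 of the 19 passed in limma.
After YTHDC1 depletion 0 of 20 and after ZCCHC8 depletion 0 of 17 members passed in limma (3 and 2 at an unadjusted p under 0.05), where 0.082% and 0.218% of all genes passed in either direction. The change of slope of the log2 ratio over the chase, which asks whether depletion altered label loss, passed in 0 members of any line in limma (3, 1 and 2 at an unadjusted p under 0.05 in the METTL3, YTHDC1 and ZCCHC8 lines), where 0.196%, 0.0% and 0.0% of all genes passed. The members that rose most without ZCCHC8 had too few reads in Ctrl cells to enter this test. Of those that did enter it, 2700038G22Rik had a slope of -0.31 log2 units per hour in Ctrl and -0.12 in dTAG cells of the ZCCHC8 line (difference 0.19, SE 0.06, limma adjusted p = 1.0), and B230354K17Rik -0.36 and -0.72 in the YTHDC1 line (difference -0.36, SE 0.09, limma adjusted p = 0.81). Both were picked after their values were seen.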

How the data were processed

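Mouse embryonic stem cell RNA labelled with 4sU was alkylated, made into stranded total RNA libraries and sequenced in read pairs. The authors removed ribosomal reads and aligned the rest to mm10 with STAR 2.5.2b, keeping unique end-to-end alignments under a mismatch limit, which can drop reads with many T-to-C conversions. They deposited GRAND-SLAM tables with read counts per gene, the MAP new-to-total ratio (a fraction), and conversions and coverage (covered T), which are signal values without normalization. Of 432 sample columns, 180 were not used.

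The members and gene lists were chosen with earlier results of these data known. Counts were tested with edgeR 4.0.16 (arm plus chase time, per line, low genes removed by filterByExpr, TMM) in R 4.3.3, log2 MAP ratios with limma 3.58.1, which needs no pseudocount because genes had to reach 30 reads and a ratio of 0.02 in every library. Adjusted p-values are Benjamini-Hochberg over all genes tested, with a threshold of 0.05. Named genes are the 3 given markers, the 5 members with most reads, and, of members called and moving the same way in all 6 pairs, the 12 largest rises in the ZCCHC8 line and up to 6 rises and falls elsewhere, with the members whose ratio was called. Alternatives were the replicate block, other scalings, no count filter, DESeq2 1.42.0, summed chase libraries and leaving out each replicate.

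Replicate numbers come from the labels. Same-numbered libraries of the 2 arms deviated together over genes, with correlations from 0.62 to 0.78 for METTL3, from 0.68 to 0.75 for YTHDC1 and from 0.20 to 0.21 for ZCCHC8, so they were treated as paired in the block fits. Replicate libraries differed beyond counting noise, with a chi-square of 2.45 to 77.9 per degree of freedom over genes. Totals of 5274684 to 18652000 reads set the precision. On simulated counts with 200 genes changed 2-fold, edgeR recovered 81.0% (METTL3), 90.5% (YTHDC1) and 96.0% (ZCCHC8) of them, with 12, 9 and 7 false calls. The changed genes were drawn from all genes tested, and the simulated libraries did not deviate together by replicate. The recovery of members, whose median was 28.6 mean reads, was not measured.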

Additional observations from a re-analysis of the deposited data

Results flagged for a closer look

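The response to dTAG differed between lines for many members, by the interaction of line and arm in 1 edgeR fit of 36 libraries with Benjamini-Hochberg adjustment. The response was higher in the ZCCHC8 than in the METTL3 line for 45 members and lower for 2, against 11.2% and 12.8% of 14679 genes. It was higher than in the YTHDC1 line for 38 and lower for 2, against 7.12% and 7.19%. Between the METTL3 and YTHDC1 lines it was higher in the METTL3 line for 6 and lower for 5, against 10.6% and 10.5% of genes.

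On the log2 scale, the response of 4932422M17Rik was higher in the ZCCHC8 line by 3.56 than in the METTL3 line and by 3.80 than in the YTHDC1 line. For 1810019N24Rik the differences were 3.41 and 3.76, and for 1700007L15Rik 3.20 and 3.35.

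The 6 members that moved in opposite directions in different lines also differed. The ZCCHC8 response was above the METTL3 and YTHDC1 responses by 3.58 and 2.57 for 4631405K08Rik, 2.67 and 2.32 for 4930480K23Rik, 2.08 and 2.01 for 5730419F03Rik, 1.30 and 1.73 for B230354K17Rik, and 0.84 and 1.83 for D430019H16Rik. For B830012L14Rik it was above the METTL3 response by 1.13. The METTL3 minus YTHDC1 difference was -1.02 for 4631405K08Rik and 0.99 for D430019H16Rik. Groups hold 2 libraries, too few to look for single outlying libraries.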

How the results depend on the processing

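Of 93 alternatives for 15 counts of called members, 79 stayed within 1.5 times the reported count. With the replicate block the counts were 31 instead of 20 (METTL3 arm), 25 instead of 11 (METTL3 chase), 15 instead of 5 (YTHDC1 arm) and 22 instead of 11 (METTL3 minus YTHDC1 response), and no other count moved that far. With chase libraries summed, 0 members passed in the METTL3 and 0 in the YTHDC1 line. Of members with a mean of at least 20 reads, 36 instead of 57 were called in the ZCCHC8 line, since fewer were tested. Leaving out each replicate gave 16 to 27 for the METTL3 chase, 4 to 13 for the YTHDC1 arm, 20 to 27 instead of 36 for the ZCCHC8 chase, 0 to 0 instead of 6 for the METTL3 ratio, and 0 to 3 (METTL3) and 0 to 1 (ZCCHC8) for label loss. The cause was not tested. The share of all genes called when a replicate was left out or chase libraries were summed was not counted.

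Of 707 alternatives for 113 values of single genes, 651 kept direction and call, 56 lost the call and 0 reversed. Depth limits label estimates: 19, 20 and 17 members could be tested, and members at low counts in Ctrl cells could not. Each line is 1 clone, so protein and clone cannot be told apart. Without the 5 noncoding members with most reads, an alternative added after seeing the data, the mean 180 to 0 min ratio of their sum was 1.21, 1.24 and 1.26 instead of 1.52, 1.58 and 1.47 (METTL3, YTHDC1, ZCCHC8).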
